A study of Mus musculus with 12 samples.

Results

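Immediate early and activity-regulated genes were followed in the hippocampus of APP/PS1 mice, a model of Alzheimer's disease, and their wild-type (WT) controls. The set was 35 genes taken by name from a table of 55573 genes, and 33 of them were expressed highly enough to be tested, among 14008 genes that were. The members fell into 4 roles, which were 6 AP-1 subunits, 10 other inducible transcription factors, 11 feedback and signalling regulators, and 8 synaptic and secreted effectors. RNA was sequenced from 12 whole right hippocampi of C57BL/6J mice aged 4.5 months, with 1 library for each animal. In each sex there were 4 APP/PS1 and 2 WT animals. The model combines a pair of transgenes, APPSwe, an amyloid precursor protein of joined mouse and human sequence with the Swedish mutation, and PS1dE9, human presenilin 1 without an exon, each expressed from prion promoter sequence, and the WT mice carry neither. 

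Immediate early genes are the first to be transcribed when a neuron fires, because the proteins that switch them on, such as CREB and the serum response factor, already wait in the nucleus for calcium and kinase signals. Their products are mostly short-lived transcription factors that set off a later wave of genes acting at the synapse, among them secreted peptides and neurotrophins. In the hippocampus their RNA rises within minutes of experience or of stimulation that induces long-term potentiation and then decays, so that their level in a whole tissue reflects the recent past of the animal.

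Libraries are named by group and by the number in their title. Total counts per library ranged from 36714316 to 50643565. Values are normalized CPM, the share of each gene in its library's counts, scaled to a common total by an upper-quartile factor, and differences between groups are log2 fold changes fitted by edgeR. The neuron markers summed to between 7813 and 8642 normalized CPM in every library, and dentate gyrus and CA1 markers were present in all 12, as the label of hippocampus requires. In 3 libraries (WT female 2, APP/PS1 female 1 and the male APP/PS1 library 2) the choroid plexus markers summed to between 5801 and 10435 normalized CPM, against 140 to 201 in the others, and the call of Fosb, the interactions, the spread and the relations of Fos are also given without them. The microglia markers were higher in APP/PS1 than in WT, 10 of 10 in the sexes averaged, of which 5 passed the test, among them Csf1r and Itgam with log2 fold changes of 0.59 and 0.50.

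The promoters of 6 transcription factors are printed here because these genes mark the 2 patterns in the data. Junb, Npas4 and Nr4a1 varied together with Fos over the 12 libraries, though the relation of Npas4 rests on few libraries. Fosb and Fosl2 were the pair with the smallest p for genotype. Each run is the 250 bases before the transcription start, from RefSeq on GRCm38.p6, on the strand of the gene, with the short cAMP response element motif (TGACG, or CGTCA on the other strand) in capitals.
Fos, chr12:85473640-85473889, plus strand: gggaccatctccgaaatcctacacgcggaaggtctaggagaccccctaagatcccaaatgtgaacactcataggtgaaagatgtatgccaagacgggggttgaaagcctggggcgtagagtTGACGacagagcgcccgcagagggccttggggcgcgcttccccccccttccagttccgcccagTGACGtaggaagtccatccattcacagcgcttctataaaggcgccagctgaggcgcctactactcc
Junb, chr8:84978749-84978998, minus strand: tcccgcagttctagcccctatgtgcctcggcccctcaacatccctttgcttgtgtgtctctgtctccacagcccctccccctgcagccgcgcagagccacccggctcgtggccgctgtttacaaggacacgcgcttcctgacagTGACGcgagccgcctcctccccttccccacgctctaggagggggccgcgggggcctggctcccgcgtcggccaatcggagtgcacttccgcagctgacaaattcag
Npas4, chr19:4989972-4990221, minus strand: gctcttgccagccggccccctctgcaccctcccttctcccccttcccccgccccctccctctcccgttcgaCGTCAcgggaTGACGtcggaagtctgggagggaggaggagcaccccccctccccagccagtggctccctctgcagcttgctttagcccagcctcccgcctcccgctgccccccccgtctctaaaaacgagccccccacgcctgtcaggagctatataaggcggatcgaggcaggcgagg
Nr4a1, chr15:101266596-101266845, plus strand: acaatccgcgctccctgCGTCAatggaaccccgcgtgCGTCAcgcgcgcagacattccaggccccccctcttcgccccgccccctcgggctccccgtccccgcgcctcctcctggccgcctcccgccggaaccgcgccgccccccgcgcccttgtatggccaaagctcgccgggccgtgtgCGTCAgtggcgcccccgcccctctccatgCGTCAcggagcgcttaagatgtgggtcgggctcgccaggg
Fosb, chr7:19310046-19310295, minus strand: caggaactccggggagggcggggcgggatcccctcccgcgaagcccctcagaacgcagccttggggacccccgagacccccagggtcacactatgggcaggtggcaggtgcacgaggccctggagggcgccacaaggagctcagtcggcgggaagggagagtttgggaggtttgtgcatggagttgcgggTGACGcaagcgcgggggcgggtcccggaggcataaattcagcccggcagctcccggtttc
Fosl2, chr5:32136222-32136471, plus strand: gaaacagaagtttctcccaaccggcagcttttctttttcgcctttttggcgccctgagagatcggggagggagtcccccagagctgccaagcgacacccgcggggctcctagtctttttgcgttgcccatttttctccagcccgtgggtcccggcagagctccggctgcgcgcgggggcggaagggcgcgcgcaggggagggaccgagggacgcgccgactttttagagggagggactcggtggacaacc
The Nr4a1 window holds the short motif 4 times, the Fos and Npas4 windows 2 times each, the Junb and Fosb windows 1 time each, and the Fosl2 window 0 times.

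RefSeq windows were matched for 28 of the 35 members, which have 40 windows, since Bdnf has 7 and Egr2 has 5. The short motif was present in 22 of these 40 windows (55.0%), belonging to 19 members, and in 17.8% of all 32851 windows of the same 250 bases. The full cAMP response element TGACGTCA, which contains the short motif on both strands, was in 4 of the 40 windows, those of Btg2, Dusp1, Pcsk1 and Scg2, and in 1.55% of all windows. The CArG box, the motif named for the serum response factor, was in 5 of the 40 windows (12.5%) and in 1.47% of all windows. These 5 windows belong to 2 of the 28 members, Egr2 and Dusp5. Sites farther than 250 bases before the start were not searched, for this motif or the others. Of the Egr2 windows that hold the CArG box, those starting at 67537619, 67537620 and 67537680 on chromosome 10 largely overlap each other. The Egr2 window at 67537316-67537565 lies apart from them. The AP-1 motif TGANTCA was found in 1 window of Bdnf and in 6.75% of all windows, and the EGR motif GCGTGGGCG in 0 of the 40 windows and in 0.536% of all. Both strands were searched. Members without a window are Arc, Vgf, Egr1, Egr3, Ier2, Sik1 and Trib1.

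Levels per kilobase of exon spanned a wide range among the members. The neuropeptide precursors Scg2 and Vgf were the highest, at 92.1 and 65.0 mean normalized CPM per kb, followed by Jun at 39.2, Arc at 38.3 and Junb at 27.1. The lowest members tested were Klf4 at 1.70, Trib1 at 1.73, Inhba and Sik1 at 2.39 each, Fosb at 2.55 and Npas4 at 2.70 mean normalized CPM per kb. Egr2, a zinc finger factor of the EGR family, had between 0 and 24 counts in a library and Jund, an AP-1 subunit, between 6 and 27, and neither passed the filter on low values. Over the exons of Jund, 52.6% of the bases overlap a gene on the other strand, Gm11175, and the strand setting of the counting is not given in the sources used here, so reads of the pair may not be told apart. Smaller antisense overlaps touch Dusp5 (22.1% of exon bases), Bdnf (14.4%), Junb (7.5%) and Jun (7.3%).

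The comparison of APP/PS1 with WT asks whether the model carries a different load of activity-regulated transcripts. With the sexes averaged, Fosb, an AP-1 subunit whose splice form deltaFosB is unusually stable, fell in APP/PS1, and it was the only member called by edgeR's quasi-likelihood test with a Benjamini-Hochberg adjusted p under 0.1. The background for such a call was 0.15% of the genes tested for a decrease and 1.9% for either direction. Fosl2, a second Fos-family subunit, was next, at an adjusted p of 0.11, while Fos itself did not differ detectably. In bulk tissue, fewer cells of a type and less RNA per cell cannot be told apart.

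Fosb (chr7:19302696-19310051 on GRCm38, minus strand) stood at 22.8 and 15.5 normalized CPM in the WT females, 12.8, 17.01, 12.9 and 9.06 in the APP/PS1 females, 21.1 and 20.8 in the WT males, and 13.05, 12.1, 17.1 and 16.4 in the APP/PS1 males. The group means were 19.2 ± 5.12 (SD, n = 2) in the WT females, 12.95 ± 3.25 (SD, n = 4) in the APP/PS1 females, 20.98 ± 0.237 (SD, n = 2) in the WT males and 14.7 ± 2.46 (SD, n = 4) in the APP/PS1 males. Within the males every WT library was above every APP/PS1 library, and within the females the lower of the WT libraries lay below the highest APP/PS1 library. With n = 2 against n = 4 in a sex, such a separation can arise by chance, here and for the members below. The share of all genes with a separation within a sex was not counted. The fitted log2 fold change was -0.48 (SE 0.11, 0.718 times the WT level, adjusted p = 0.0734 by edgeR with Benjamini-Hochberg adjustment), and taken by sex it was -0.50 for the females, at an adjusted p of 0.316, and -0.46 for the males, at 0.626. A two-sided exact permutation test of the normalized values within the sexes, over 225 splits, gave an unadjusted p = 0.0178, where the smallest possible is 0.00444. Fosb alone was given this test, as the member with the smallest p for genotype in the same data, so the test is not independent support.

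The call of Fosb was lost without the RUV factors (adjusted p = 0.241), with 1 RUV factor (adjusted p = 0.171), with the replicate number as a block (adjusted p = 0.294), at an FDR of 0.05, and when any 1 of 7 libraries was left out, with adjusted p of 0.513 without WT female 1, 0.361 without APP/PS1 male 2, 0.184 without APP/PS1 female 1 or APP/PS1 male 1, 0.145 without APP/PS1 female 3, 0.127 without WT male 1 and 0.119 without APP/PS1 male 4. The log2 fold change was below 0 in each of these fits. In females it ran from -0.71 to -0.17 over the fits. Without the 3 libraries rich in choroid plexus transcripts it was -0.59 and the call was kept (adjusted p = 0.0857 by edgeR).

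Fosl2 stood at 82.1 and 79.6 normalized CPM in the WT females, 66.7, 72.9, 69.96 and 68.2 in the APP/PS1 females, 90.9 and 107 in the WT males, and 69.8, 58.4, 90.6 and 91.03 in the APP/PS1 males. Within the females the APP/PS1 libraries were all below both WT libraries, and within the males the upper APP/PS1 libraries reached the lower WT library. Its log2 fold change was -0.25 with the sexes averaged (SE 0.066, adjusted p = 0.11 by edgeR), -0.20 in females and -0.31 in males. It passed the threshold with the likelihood ratio test of edgeR (adjusted p = 0.0270), with DESeq2 (adjusted p = 0.0179), and with the main test when APP/PS1 male 3 (adjusted p = 0.0191) or WT male 1 (adjusted p = 0.0972) was left out. Without the 3 libraries rich in choroid plexus transcripts its adjusted p was 0.377 by edgeR. Counts are per gene, so the splice forms of Fosb, deltaFosB included, are summed.

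Fos, the partner of the Jun proteins in the classical AP-1 dimer, stood at 14.1 and 10.8 normalized CPM in the WT females, 15.3, 18.6, 11.03 and 8.31 in the APP/PS1 females, 20.7 and 17.3 in the WT males, and 27.3, 21.2, 22.8 and 15.6 in the APP/PS1 males. The APP/PS1 groups held both the highest and the lowest library, and the log2 fold change was 0.17 with an SE of 0.24. Junb, a Jun-family subunit induced together with Fos, stood at 69.4 and 45.2 normalized CPM in the WT females, 49.3, 65.4, 52.00 and 39.9 in the APP/PS1 females, 69.99 and 74.1 in the WT males, and 81.2, 74.2, 66.98 and 60.6 in the APP/PS1 males. Genotypes overlapped in both sexes, with a log2 fold change of -0.06 (SE 0.16). Jun, another Jun-family subunit, stood at 142 and 112 normalized CPM in the WT females, 102, 115, 120.0 and 113 in the APP/PS1 females, 135 and 135 in the WT males, and 119.8, 131, 150.0 and 126 in the APP/PS1 males. Among its libraries the WT female 1 value was the highest of the females, and its log2 fold change was -0.21 in females (SE 0.091, unadjusted p = 0.0369 and adjusted p = 0.474 by edgeR) and -0.01 in males.

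**Figure D1:**
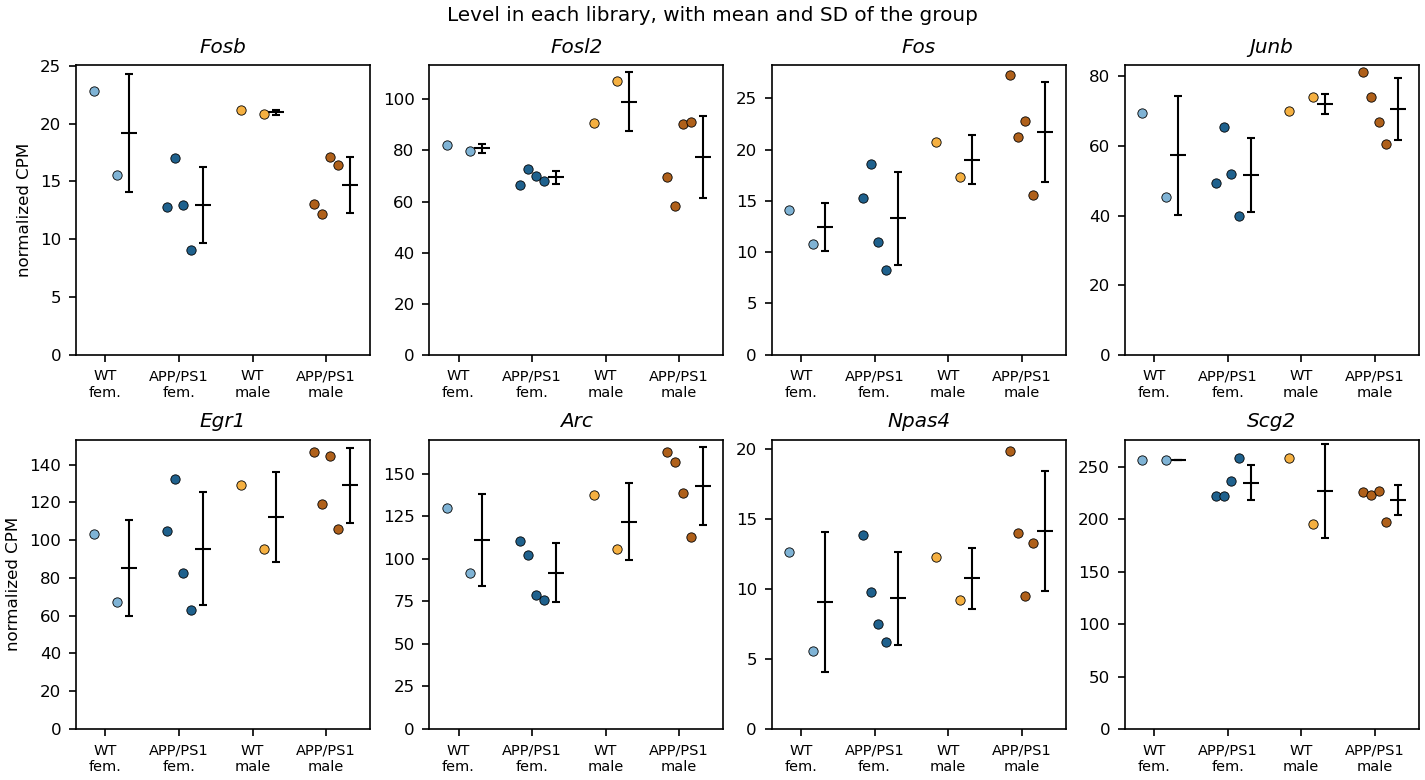
Normalized CPM (vertical axes, from 0) of Fosb, Fosl2, Fos, Junb, Egr1, Arc, Npas4 and Scg2 in each of the 12 libraries by group, where points are libraries and the bar beside them is the mean with the SD. The APP/PS1 points of Fosb lie between 9.06 and 17.1 and the WT points between 15.5 and 22.8. With the sexes pooled, the genotypes overlap for Fosb between 15.5 and 17.1. They also overlap for Fosl2, Fos, Junb, Egr1, Arc, Npas4 and Scg2.

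None of the 9 other inducible transcription factors tested was called for genotype. Egr1, a zinc finger factor widely used as a marker of recent neuronal activity, stood at 103 and 67.1 normalized CPM in the WT females, 105, 132, 82.4 and 62.99 in the APP/PS1 females, 129 and 95.4 in the WT males, and 147, 119, 144 and 106 in the APP/PS1 males. Npas4, a neuron-specific factor induced by calcium entry, stood at 12.6 and 5.55 normalized CPM in the WT females, 13.9, 9.77, 7.51 and 6.24 in the APP/PS1 females, 12.3 and 9.22 in the WT males, and 19.9, 14.02, 9.52 and 13.3 in the APP/PS1 males. Nr4a1, an orphan nuclear receptor, stood at 65.9 and 45.8 normalized CPM in the WT females, 46.9, 54.2, 37.1 and 39.5 in the APP/PS1 females, 70.7 and 59.98 in the WT males, and 70.5, 65.5, 56.2 and 53.5 in the APP/PS1 males. In all 3 genes the genotypes overlapped in each sex, and their log2 fold changes with the sexes averaged were 0.22 (SE 0.24), 0.23 (SE 0.34) and -0.21 (SE 0.15). Klf2, a Kruppel-like factor, had the lowest log2 fold change of the group, -0.35 (unadjusted p = 0.049, adjusted p = 0.517 by edgeR). Its relative Klf4 was at -0.18, the zinc finger factors Egr3 and Egr4 at -0.05 and -0.15, and the nuclear receptors Nr4a2 and Nr4a3 at -0.03 and -0.13.

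Of the 11 feedback and signalling regulators, 0 were called and 2 were lower at an unadjusted p under 0.05, against 3.32% of all genes tested. These were Dusp5, a phosphatase that switches off ERK in the nucleus, at a log2 fold change of -0.23 (adjusted p = 0.406 by edgeR), and Trib1, a pseudokinase, at -0.20 (adjusted p = 0.502). The MAP kinase phosphatases Dusp1 and Dusp6 were at -0.00 and 0.03 on the log2 scale, with SEs of 0.18 and 0.094. The clock gene Per1 was at -0.22, the kinase Sik1 at -0.20, the stress-induced Gadd45b and Gadd45g at -0.10 and -0.14, the antiproliferative gene Btg2 at 0.18, and the early response genes Ier2 and Ier5 at 0.16 and 0.07. The standard errors of these 7 log2 fold changes ran from 0.079 to 0.26.

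Of the 8 synaptic and secreted effectors, 0 were called and 3 were lower at an unadjusted p under 0.05, against 3.32% of all genes tested. These 3 were Scg2, Homer1 and Vgf. Scg2, a granin stored in dense-core vesicles, stood at 257 and 257 normalized CPM in the WT females, 223, 222, 236 and 258 in the APP/PS1 females, 258 and 195 in the WT males, and 226, 224, 227 and 198 in the APP/PS1 males. Its log2 fold change was -0.13 with the sexes averaged (SE 0.048, adjusted p = 0.373 by edgeR), and the library APP/PS1 female 4 was above both WT females. Without WT male 2, the lowest Scg2 library, it was called (adjusted p = 0.0443 by edgeR). Vgf, another peptide precursor, was at a log2 fold change of -0.27 (adjusted p = 0.519 by edgeR) and Homer1, a scaffold of metabotropic glutamate receptors, at -0.15 (adjusted p = 0.451).

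Arc, which acts in AMPA receptor endocytosis, stood at 130.0 and 91.9 normalized CPM in the WT females, 111, 102, 79.01 and 75.6 in the APP/PS1 females, 138 and 106 in the WT males, and 163, 157, 139 and 113 in the APP/PS1 males. Bdnf, the neurotrophin, stood at 49.5 and 43.2 normalized CPM in the WT females, 42.9, 56.5, 48.2 and 60.4 in the APP/PS1 females, 54.2 and 38.8 in the WT males, and 56.3, 54.4, 49.7 and 40.5 in the APP/PS1 males. The genotypes overlapped for both genes in each sex, with log2 fold changes of -0.04 (SE 0.17) for Arc and 0.09 (SE 0.088) for Bdnf. The prostaglandin synthase Ptgs2 was at -0.03, the activin subunit gene Inhba at -0.13 and the prohormone convertase Pcsk1 at -0.11.

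Across the members, 25 of 33 had a log2 fold change below 0 with the sexes averaged and the median was -0.11, where 45.3% of all genes tested were below 0 and their median was 0.01. At an unadjusted p under 0.05, 8 of 33 members were lower and 0 higher, against 3.32% and 6.26% of all genes tested. Without the RUV factors the count was 4 lower, and 23 of 33 lay below 0. Of members past that unadjusted p in either direction there were 3 without WT male 1, 4 without APP/PS1 female 2, and 5 without APP/PS1 female 3, WT female 1 or WT male 2. For 0 members were all 8 APP/PS1 libraries below, or all above, the 4 WT libraries, where the background was 0.136% and 1.31% of the genes tested.

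Within the sexes no member was called. In females the background was 0.764% called by edgeR's quasi-likelihood test, 4 members were lower at an unadjusted p under 0.05 (Fosb, Scg2, Jun and Trib1; 3.62% of all genes), and 0 members were called by the likelihood ratio test or DESeq2. In males the background was 0.171% called, 5 members were lower at an unadjusted p under 0.05 (Homer1, Fosl2, Fosb, Nr4a2 and Dusp5; 1.93% of all genes), and 0 were called by the likelihood ratio test or DESeq2. Leaving out APP/PS1 male 3 made Fosl2 a call in males (adjusted p = 0.0820 by edgeR). Homer1 stood at 213 and 175 normalized CPM in the WT females, 188, 205, 194 and 202 in the APP/PS1 females, 254 and 215 in the WT males, and 172, 160.4, 213 and 198 in the APP/PS1 males. Both WT males were above all APP/PS1 males for Homer1, a separation that so few libraries can give by chance, while the WT females enclosed the APP/PS1 females. The short activity-induced form of Homer1 and its long forms are summed in these counts, and the log2 fold changes were -0.30 in males (SE 0.088, adjusted p = 0.43 by edgeR) and -0.00 in females.

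The difference of the genotype effect between the sexes was tested as an interaction, in which the effect in males was subtracted from that in females. No member was called, where the background was 0% of the genes tested, and the likelihood ratio test and DESeq2 also called 0 members. At an unadjusted p under 0.05, 2 members were above 0, Nr4a2 and Homer1, against 2.14% of all genes. Nr4a2, a nuclear receptor, stood at 77.6 and 61.8 normalized CPM in the WT females, 76.1, 99.3, 73.1 and 67.9 in the APP/PS1 females, 101 and 108 in the WT males, and 85.5, 59.7, 98.8 and 85.6 in the APP/PS1 males. Both WT males lay above all APP/PS1 males, while WT female 2 lay below and WT female 1 among the APP/PS1 females, giving an interaction of 0.48 (SE 0.17, unadjusted p = 0.0139, adjusted p = 0.995 by edgeR). Homer1 had an interaction of 0.29 (adjusted p = 0.995). Pcsk1, the third in order of p, stood at 46.8 and 55.4 normalized CPM in the WT females, 50.7, 59.02, 53.9 and 45.8 in the APP/PS1 females, 61.8 and 59.01 in the WT males, and 45.7, 33.7, 57.98 and 57.2 in the APP/PS1 males. Its libraries overlapped between genotypes in females, and its interaction was 0.35 (SE 0.20). APP/PS1 male 2, rich in choroid plexus transcripts, was the lowest of all 12 libraries for Nr4a2, Homer1 and Pcsk1. Without it 0 members passed an unadjusted p of 0.05 for the interaction, with p of 0.0922 for Nr4a2 and 0.136 for Homer1 by edgeR. Without all 3 libraries rich in these transcripts the interaction was 0.31 for Nr4a2 (unadjusted p = 0.261 by edgeR), 0.19 for Homer1 (unadjusted p = 0.0883) and 0.44 for Pcsk1 (unadjusted p = 0.0108), and the effect in males was -0.27 for Homer1.

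**Figure D2:**
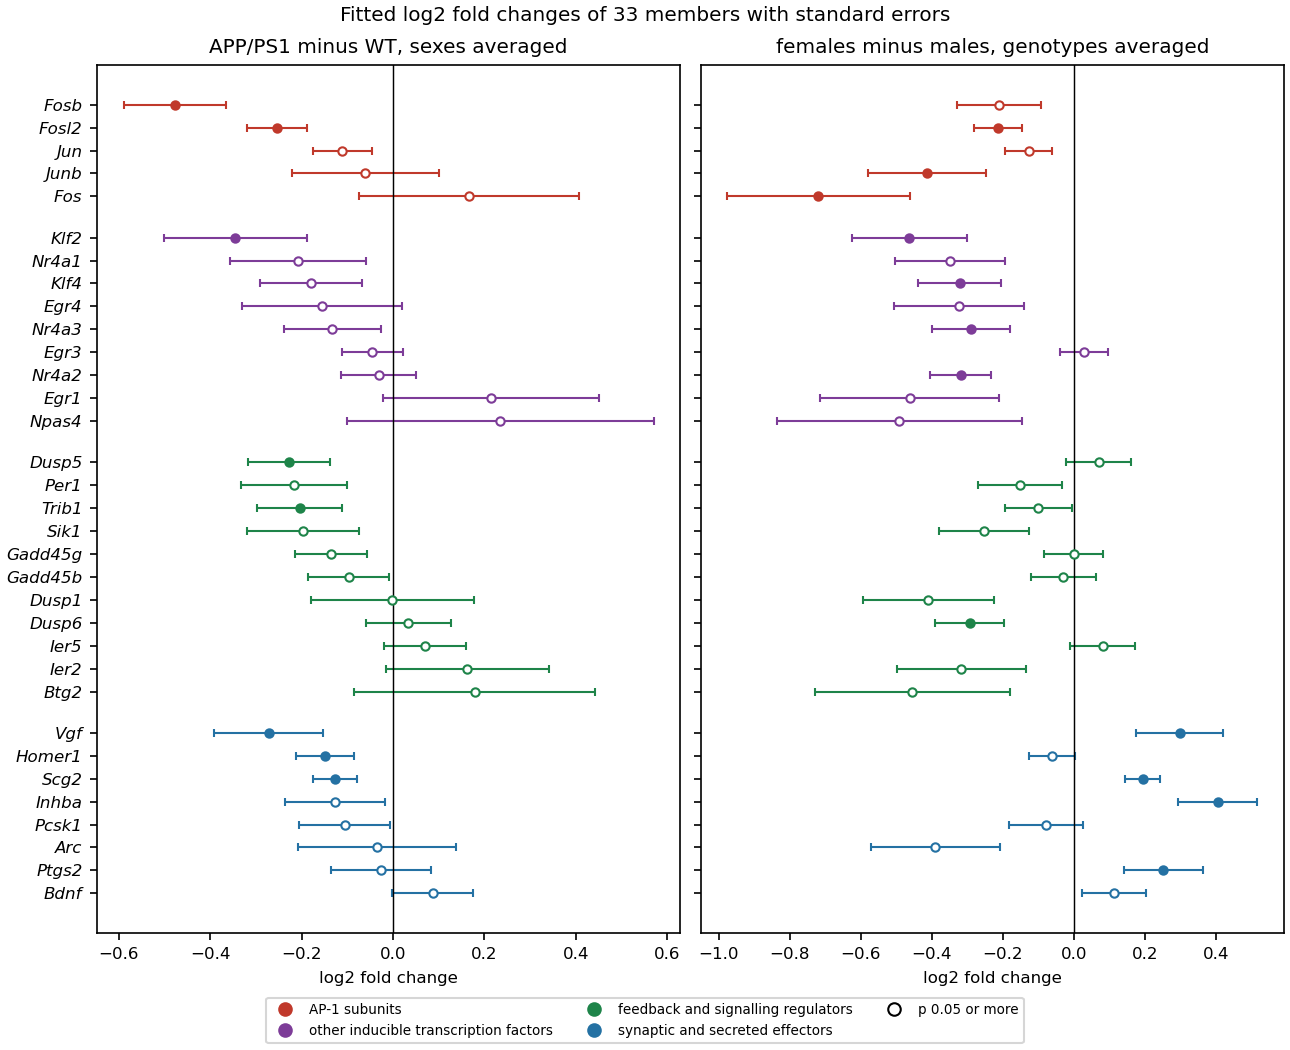
Fitted log2 fold changes (horizontal axes) of the 33 members tested, with bars of 1 standard error, for APP/PS1 minus WT with the sexes averaged (left) and for females minus males with the genotypes averaged (right), where filled points have an unadjusted p under 0.05. On the left the filled points all lie below 0, with Fosb farthest, and on the right 8 filled points lie below 0 and 4, all of them effectors, above it.

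Between the sexes, no member passed the test. With the genotypes averaged, 8 members were lower and 4 higher in females at an unadjusted p under 0.05, against 2.57% and 3.75% of all genes, and without the RUV factors 11 were lower and 2 higher, but 0 were called by edgeR's quasi-likelihood test, where the background was 0.0999% called. The likelihood ratio test also called 0, and DESeq2 called 2, Nr4a2 and Scg2. All 5 AP-1 subunits tested and 8 of 9 other transcription factors had a log2 fold change below 0 in females, and the medians were -0.21 and -0.32. In place of 12 members past that unadjusted p in either direction there were 6 without APP/PS1 female 4, 7 without APP/PS1 female 3, WT female 2 or WT male 2, and 19 without WT female 1. Of the effectors 5 of 8 were above 0, with a median of 0.15, or 0.08 without the RUV factors, where 2 were higher and 1 lower at an unadjusted p under 0.05. The median of all genes tested was -5.76e-04. The difference between the roles was not tested.

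The mean of Fos was 13.03 ± 3.69 normalized CPM in females (SD, n = 6) and 20.8 ± 4.14 in males (SD, n = 6), a log2 fold change of -0.72 (SE 0.26, unadjusted p = 0.0241, adjusted p = 0.7 by edgeR). The female values lay between 8.31 and 18.6 and the male values between 15.6 and 27.3, so the sexes overlapped. The smallest p belonged to Scg2, which was at 0.19 in females against males (SE 0.050, adjusted p = 0.444 by edgeR), followed by Nr4a2 at -0.32 (SE 0.086) and Inhba at 0.40 (SE 0.11). Inhba, which encodes a subunit of the secreted factor activin, stood at 19.9 and 15.1 normalized CPM in the WT females, 12.7, 15.04, 17.9 and 21.5 in the APP/PS1 females, 15.9 and 12.6 in the WT males, and 11.1, 12.97, 13.1 and 15.02 in the APP/PS1 males. Its highest library was a female, APP/PS1 female 4, and its lowest a male, APP/PS1 male 1.

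The other members lower in females at an unadjusted p under 0.05 were Klf2 (-0.46), Junb (-0.41), Klf4 (-0.32), Dusp6 (-0.29), Nr4a3 (-0.29) and Fosl2 (-0.21), and those higher were Vgf (0.30) and Ptgs2 (0.25), all as log2 fold changes. Without APP/PS1 male 4 Inhba became a call (adjusted p = 0.0800 by edgeR), and without WT male 1 Scg2 did (adjusted p = 0.0225). For 0 members were all 6 female libraries below, or above, all 6 male libraries, where the background was 0.0928% and 0.136%.

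Beside these contrasts stands the spread between animals of one group, which was wide for the members. The SD within groups, pooled over the 4 groups, had a median of 0.238 on the log2 scale over the members and 0.134 over all genes tested, and 31 of 33 members were above the latter. Npas4 had the widest spread, 0.511, followed by Btg2 at 0.400, Fos at 0.392 and Egr1 at 0.366. These 4 of the 33 members were among the 10% of genes with the largest SD, a share near that of all genes. Among the top 5% was 1 of the 33. The narrowest were Scg2, Jun and Egr3, at 0.133, 0.133 and 0.136. From the lowest to the highest library, Npas4 spanned 3.59 times, Fos 3.29 times and Btg2 2.88 times, and Egr3 1.29 times. Without the 3 libraries rich in choroid plexus transcripts the median SD of the members was 0.208, given here without the value over all genes.

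**Figure D3:**
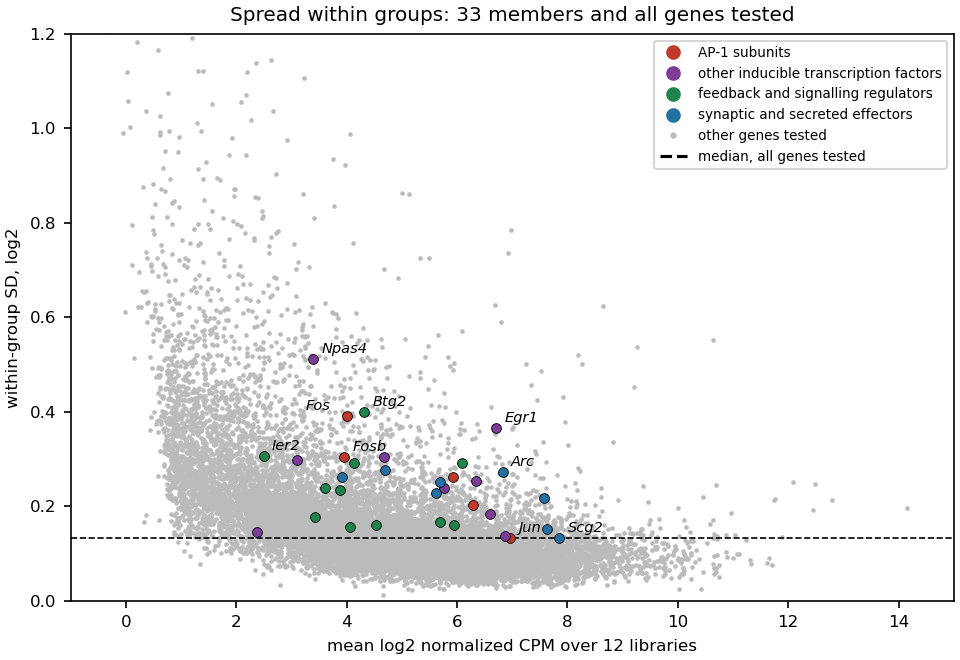
Within-group SD (vertical axis, log2) against the mean level (horizontal axis, log2 normalized CPM) of all genes tested in grey, with the 33 members coloured by role and the median of all genes as a dashed line; 94 genes lie outside the axes. Npas4, Btg2, Fos and Egr1 stand highest among the members, and only Jun and Scg2 lie below the line.

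The members did not vary independently. Fos was followed over the 12 libraries and set against 11 other members chosen across the roles, as log2 normalized CPM. It varied together with Egr1 (Pearson r = 0.95), Arc (0.89), Junb (0.88), Dusp1 (0.85), Nr4a1 (0.82), Npas4 (0.76) and Ier2 (0.76). Two-sided permutation tests of 100000 resamples gave adjusted p from 1.1e-04 for Egr1 to 0.00651 for Npas4 and Ier2, after Benjamini-Hochberg adjustment over the 11 relations, and 1e-05, the unadjusted p of Egr1, is the smallest these resamples can give. Spearman's rho for these 7 members ran from 0.63 for Npas4 to 0.93 for Egr1, with permutation adjusted p from 6.6e-04 to 0.0438. Over all 12 libraries Per1 (r = 0.12), Bdnf (0.12) and Homer1 (0.01) showed no detectable relation with Fos, with permutation adjusted p of 0.786, 0.786 and 0.964. Vgf ran against Fos, with r = -0.63 (adjusted p = 0.0380 by permutation) and rho = -0.69 (adjusted p = 0.0250).

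The libraries farthest from the median of Fos were APP/PS1 male 1, the highest, and APP/PS1 female 4, the lowest. Without them r was 0.91 for Egr1, 0.80 for Arc, 0.78 for Dusp1, 0.76 for Junb, 0.72 for Nr4a1, 0.57 for Ier2 and 0.56 for Npas4, and -0.62 for Vgf. After each value was centred on the mean of its group, which removes genotype and sex, r was 0.95 for Egr1, 0.86 for Arc, 0.82 for Nr4a1, 0.81 for Junb, 0.76 for Dusp1, 0.69 for Ier2 and 0.65 for Npas4, all with a permutation adjusted p under 0.05, while Vgf was at -0.43 (adjusted p = 0.219 by permutation). These centred p run too small, because the permutation treated the 12 centred values as free. The 2 WT values of a sex mirror each other after centring. Vgf also missed the threshold, leaving 7 relations, when APP/PS1 female 3, WT female 1, WT female 2, APP/PS1 male 1, APP/PS1 male 2 or APP/PS1 male 3 was left out. Without the 3 libraries rich in choroid plexus transcripts r was 0.96 for Egr1, 0.75 for Npas4 and 0.72 for Ier2, and 8 of the 11 relations had a permutation adjusted p under 0.05, but by Spearman's rho 4 did, those of Egr1, Arc, Dusp1 and Vgf. With APP/PS1 male 1 and APP/PS1 female 4 also left out, r was 0.27 for Npas4 and 0.08 for Ier2, so these 2 relations rest on few libraries.

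As a description, within the 6 female libraries r with Fos was 0.97 for Egr1 and 0.74 for Arc, and within the 6 male libraries 0.88 for both. For 3 of the 11 members r had opposite signs in females and males, 0.67 and -0.78 for Per1, -0.17 and 0.85 for Bdnf, and 0.24 and -0.30 for Homer1, and these differences were not tested.

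**Figure D4:**
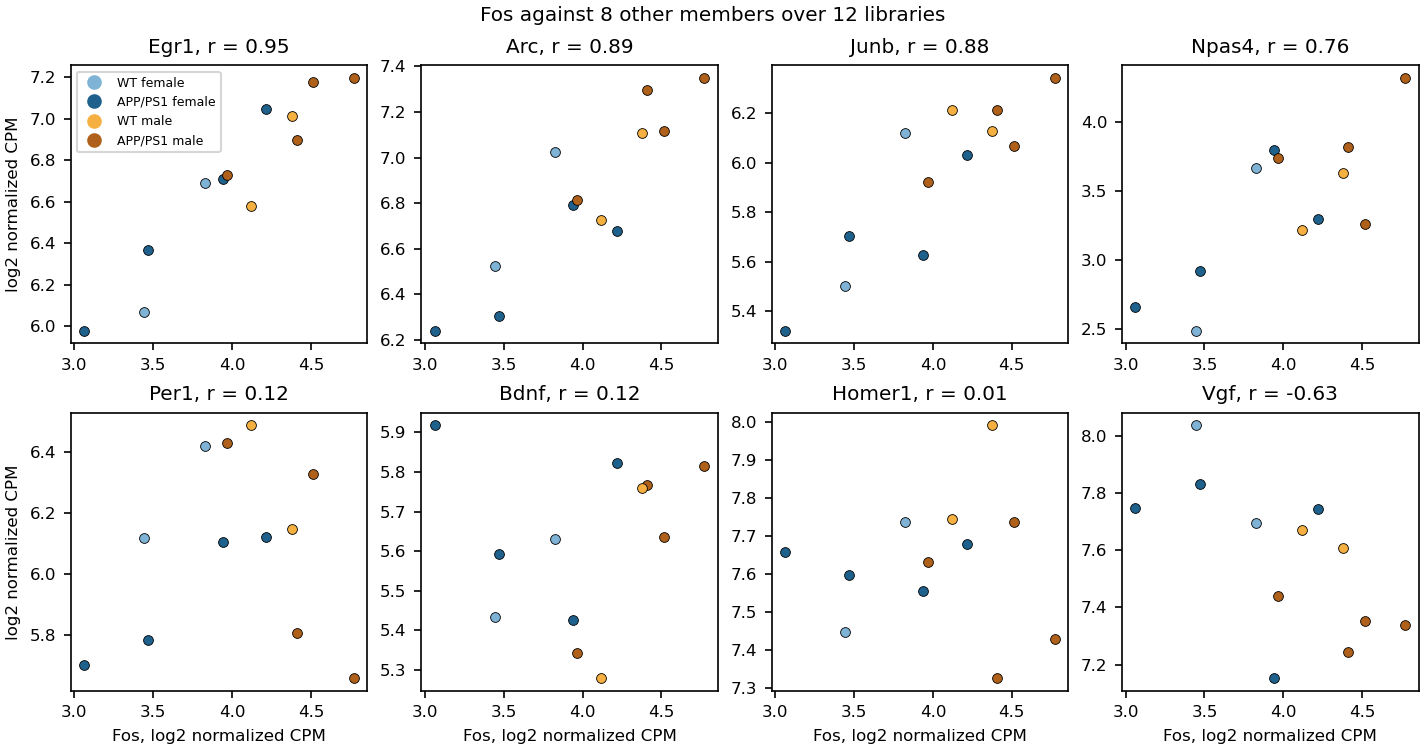
Level of 8 members (vertical axes) against that of Fos (horizontal axes), both as log2 normalized CPM, with 1 point for each of the 12 libraries coloured by group and Pearson's r above each panel. Egr1, Arc, Junb and Npas4 run upward with Fos across groups, Per1, Bdnf and Homer1 scatter, and Vgf runs downward.

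Set against all 14007 other genes tested, Egr1 had the highest r with Fos of any gene, Arc ranked 5, Junb 6, Dusp6 10, Dusp1 13, Egr4 17 and Nr4a1 21. An r of at least 0.7 was reached by 11 of 32 members (34.4%) and by 1.11% of all genes. Beside those named above, these were Dusp6 (0.86), Egr4 (0.84), Btg2 (0.80) and Klf4 (0.70). The median r with Fos was 0.70 over the inducible transcription factors, 0.40 over the other AP-1 subunits, 0.38 over the feedback regulators and -0.21 over the effectors. At the other end stood Inhba (-0.77), Vgf (-0.63), Dusp5 (-0.46), Ptgs2 (-0.43) and Scg2 (-0.39). Fosb (0.36) and Fosl2 (0.13), the pair with the smallest p for genotype, had an r under 0.7. These r over 12 libraries are descriptions and share the scaling of each library.

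The short cAMP response element motif was found at high and at low r with Fos. Of the 8 members with an r of at least 0.7 and a matched window, 7 held it and Dusp6 did not. Of the 17 with a lower r, 10 held it, among them Homer1, Pcsk1, Scg2 and Dusp5, whose r was 0.01 or less. In base composition, 10 of the 11 members with an r of at least 0.7 had a longest transcript above 49.6% G and C, the median of all genes tested, against 8 of the 12 with an r from 0 to 0.7 and 5 of the 9 below 0. Over all genes tested the shares above that median were 38.1%, 41.6% and 59.2% in the same classes. The part of base composition in these relations was not tested.

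Library by library, APP/PS1 male 1 held the highest level of 10 members, among them Fos, Junb, Egr1, Npas4, Arc and Btg2, and its 33 members averaged 0.17 above their means on the log2 scale. WT male 1 averaged 0.19 above, with 30 of 33 members above their mean. APP/PS1 female 4 averaged 0.22 below and APP/PS1 female 3 0.20 below. In APP/PS1 female 4 the AP-1 subunits averaged 0.53 below their means and the effectors 0.12 above.

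**Figure D5:**
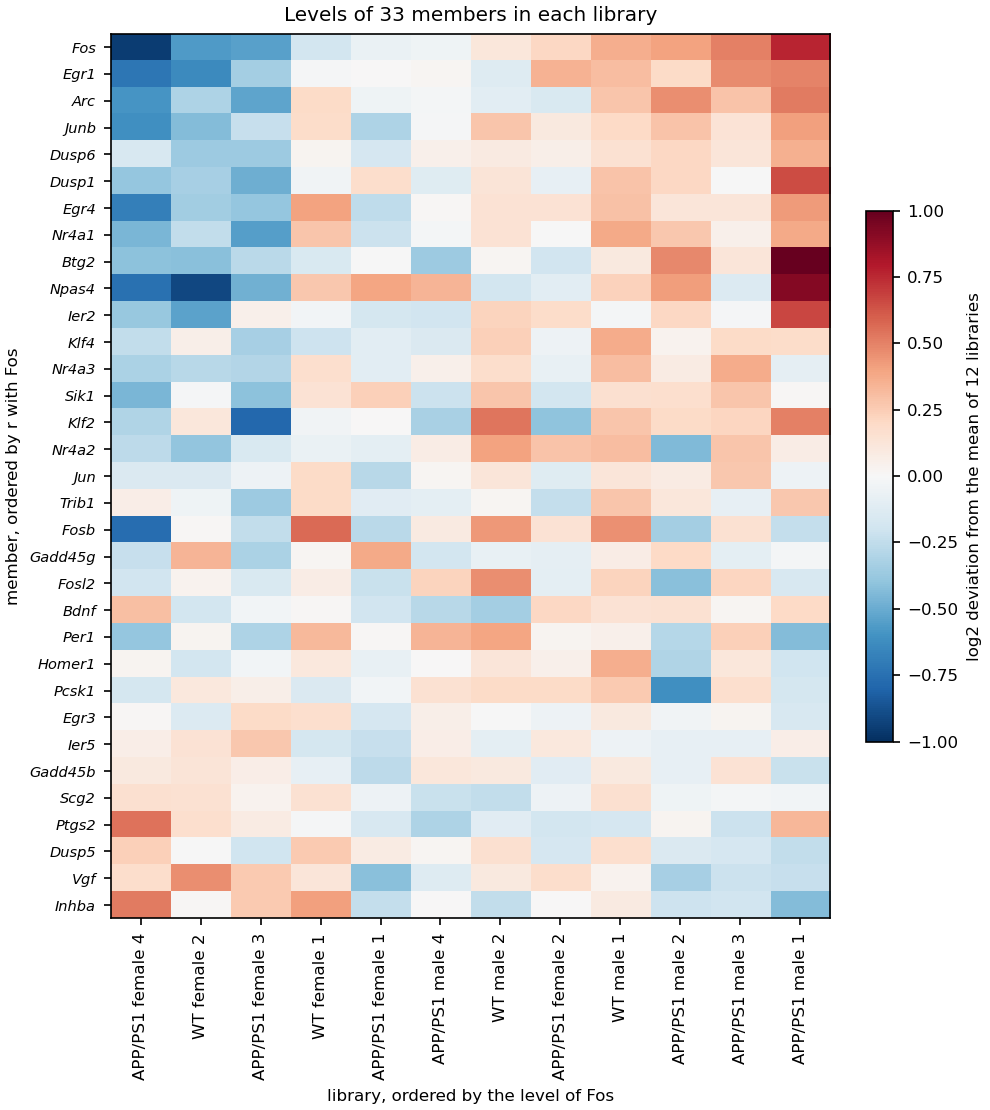
Log2 deviation of 33 members (rows, ordered by r with Fos) from their mean over the 12 libraries (columns, ordered by the level of Fos), blue below and red above the mean. The rows from Fos to Ier2 change from blue to red together from APP/PS1 female 4 to APP/PS1 male 1, and the lowest rows, Vgf and Inhba, run the opposite way.

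No measure of the whole library moved detectably with Fos. Its r was 0.13 with the total counts, -0.05 with the summed neuron markers, -0.16 with the dentate gyrus markers, -0.10 with the CA1 markers, 0.10 with the microglia markers, -0.06 with the choroid plexus markers and 0.43 with the endothelial markers, and the smallest of the 10 adjusted permutation p of this family was 0.872. Spearman's rho was 0.65 for the endothelial markers (unadjusted permutation p = 0.0255, adjusted p = 0.255), which summed to between 177 and 273 normalized CPM. The marker sums entered on the log2 scale.

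Genes around the members in the same pathways were looked at as lists. Of 39 upstream signalling genes (kinases, receptors and CREB and serum response factor cofactors), all passed the filter and 0 were called with the sexes averaged, 30 of 39 being below 0 with a median of -0.03, and 5 were lower and 2 higher at an unadjusted p under 0.05. Of 36 other activity-regulated genes, 33 were tested and 0 were called, with 3 lower and 1 higher at an unadjusted p under 0.05. Of all genes tested, 45.3% were below 0, and 3.32% were lower and 6.26% higher at that p. In this second list the r with Fos ran from -0.90 for Nptx2, a secreted pentraxin of excitatory synapses, to 0.65 for Syt4, with a median of 0.02. The heat shock genes had 0 of 7 called, with 0 at an unadjusted p under 0.05, and the circadian clock genes 0 of 14, with 1 higher.

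The glucocorticoid target genes lay in 1 direction in both readings, without passing the test. With the sexes averaged 13 of 13 were lower in APP/PS1, at a median log2 fold change of -0.35, with 0 called by edgeR (smallest adjusted p = 0.140). At an unadjusted p under 0.05, 3 of them were lower, against 3.32% of all genes tested. Their summed level ran from 746 to 814 normalized CPM in the APP/PS1 males and from 971 to 1137 in the WT males, against 787 to 1213 in the APP/PS1 females and 1087 to 1093 in the WT females. Their r with Fos was below 0 for 13 of 13, from -0.82 for Fkbp5 to -0.12 for Nfkbia, with a median of -0.56. The median r with Fos over all genes tested was 0.02. Between the sexes, 13 of 13 of these genes were higher in females, at a median log2 fold change of 0.26, with 0 called. Fos was lower in females, at -0.72. These r were taken over both sexes without centring on the group means, and the part of sex in them was not tested. Per1, a member that glucocorticoids also induce, had an r of 0.12 with Fos. The part of this list in the results on the members was not tested.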

How the data were processed

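Reads from directional mRNA libraries of 12 hippocampi were trimmed by the authors with Trimmomatic, aligned to GRCm38 with STAR and counted per Ensembl gene with HTSeq. The authors deposited whole-number counts per gene, without normalization. Versions and the strand setting of the counting are not given in the sources used here. Symbols and positions came from GENCODE M21, where 55480 of 55573 genes matched.

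The 14008 genes reaching a log2 CPM of 1 in 3 or more libraries were tested. Upper-quartile scaling was used, and the model held 4 groups and 2 RUV factors (RUVg, re-implemented, controls being all but the top 5000 genes of a first pass). The quasi-likelihood F test of edgeR 4.0.16 in R 4.3.3, with Benjamini-Hochberg adjustment over all genes tested, called genes at an FDR under 0.1. Normalized CPM do not contain the RUV correction. The fit was tested on simulated counts. Every member is named, and those called, the 3 with the smallest p in each contrast and 7 fixed genes are given by library. The members and lists were chosen with earlier results of these data known. The relations with library measures and with all genes were added after seeing the data.

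The 14 pairs of libraries within groups differed by 12.6 to 57.2 chi-square per degree of freedom, more than sampling noise. The fits were repeated with DESeq2 1.42.0, a likelihood ratio test in edgeR, other filters, TMM scaling, fewer RUV factors, a replicate block, an FDR of 0.05 and leaving out libraries.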

Additional observations from a re-analysis of the deposited data

Results flagged for a closer look

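In the groups of 4 libraries, 1 library lay far from the other 3 for 2 members, among 66 groups looked at, and chance alone marks about 1 group in 20. Vgf was at 142 normalized CPM in APP/PS1 female 1, against 214 to 228 in the other APP/PS1 females, and this library is rich in choroid plexus transcripts. Scg2 was at 198 normalized CPM in APP/PS1 male 4, against 224 to 227 in the other APP/PS1 males. For Nr4a2 and Homer1 the interaction of genotype and sex was flagged, at 0.48 and 0.29 on the log2 scale. The unadjusted p by edgeR were 0.0139 and 0.0384, but neither gene was called, with an adjusted p of 0.995 for both. Without APP/PS1 male 2, the lowest library for both genes, these unadjusted p were 0.0922 and 0.136.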

How the results depend on the processing

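With the sexes averaged, 1 member was called. The count was 2 (Fosb and Fosl2) with the likelihood ratio test, with DESeq2, with the CPM filter, and with the likelihood ratio test and the CPM filter together, which was chosen after seeing the data. It was 0 with no RUV factors, with 1 RUV factor and at an FDR of 0.05, and from 0 to 2 when 1 library was left out. The libraries and values behind this range stand beside Fosb, Fosl2 and Scg2 above. In males it was 0 to 1 when 1 library was left out, the 1 being Fosl2 without APP/PS1 male 3. For females against males it was 0, and 2 with DESeq2 (Nr4a2 and Scg2) and 0 to 1 when 1 library was left out (Inhba without APP/PS1 male 4, Scg2 without WT male 1). With the replicate number as a block, 2 members were called with the sexes averaged, Fosl2 lower and Fos higher but not Fosb, and 1, Fos, lower in females, for females against males. Only the number in the titles links same-numbered libraries. After centring on the group means, the 14 same-numbered pairs of libraries correlated from -0.67 to 0.73, with 4 over 0.1. The 2 WT libraries of a sex mirror each other after centring, so these values cannot decide whether the numbers mark a shared batch. The counts in females and for the interaction stayed at 0, the Pearson relations of Fos at 7 or 8 of 11, and the median SD between 0.208 and 0.253 in every fit run. By Spearman's rho the relations were 8, 7 after centring on the group means, and 4 without the 3 choroid plexus-rich libraries. They were not counted by rho in the other fits. The log2 fold changes of single members given alternatives kept their direction in all 23 fits, but their size moved, with the sexes averaged for Scg2 from -0.21 to -0.02, and in females for Fosb from -0.71 to -0.17 and for Jun from -0.34 to -0.05. Leaving out a WT library leaves 1 in that sex, which is assumed to vary like the other groups. These comparisons rest on 2 WT animals in each sex and 6 residual degrees of freedom. The parts of depth and of the spread between animals in what they can detect were not tested.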
